A study of Mus musculus with 9 samples.

Results

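The 10 genes described here are the CD8 co-receptor chains Cd8a and Cd8b1, the CD3 chains Cd3d, Cd3e and Cd3g, the zeta chain gene Cd247, and Cd2, Lck, Lat and Thy1, which encode an adhesion receptor, a kinase, an adaptor and a surface glycoprotein of T cells. They were chosen by name, and all 10 are among the 25361 genes of the count table. The libraries were made from cells that CD8a magnetic beads pulled out of subcutaneous MC38 tumours, a transplanted mouse colon carcinoma line, collected on day 21 after injection into wild-type male C57BL/6N mice. The groups were aged restricted mice (20 months old, kept on 70% of the food that freely fed mice ate), aged ad libitum mice (20 months old) and young ad libitum mice (5 months old), with 3 libraries from separate biological replicates in each. The labels do not say whether each replicate was 1 mouse or a pool, and none of the 9 libraries holds the cells that the beads left behind. The libraries read the 3′ end of each polyadenylated transcript once, so counts are not scaled by transcript length and are compared here mainly between libraries of the same gene. Where sums of gene lists or shares of counts are set beside each other, they are not proportions of cells.

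A mature T cell recognises peptide on an MHC molecule through its T cell receptor, which has almost no cytoplasmic tail and signals through the CD3 chains and the zeta dimer. CD8 binds MHC class I and carries the kinase Lck to the receptor, where Lck phosphorylates the tails of CD3 and zeta; Zap70 then docks there and phosphorylates the scaffold Lat, from which the calcium and Ras branches start. CD2 binds CD48 on mouse cells and helps the contact form, and Thy1 is the classical surface marker of mouse T cells that fibroblasts and neurons also carry.

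The genes lie on 6 chromosomes and in 2 local groups in the GENCODE M21 annotation of GRCm38. Cd8b1 (chr6:71322788-71337494, plus strand) ends 35932 bases before Cd8a (chr6:71373427-71379173, plus strand). On chromosome 9, Cd3g (chr9:44969572-44980431, minus strand) and Cd3d (chr9:44981786-44987339, plus strand) are transcribed away from each other from starts 1355 bases apart, Cd3e (chr9:44998740-45009627, minus strand) lies 11400 bases beyond Cd3d, and Thy1 (chr9:44043384-44048579, plus strand) lies 920992 bases from Cd3g. The others are Cd247 (chr1:165788681-165877277, plus strand), Cd2 (chr3:101275899-101287939, minus strand), Lck (chr4:129548344-129573641, minus strand) and Lat (chr7:126363824-126369570, minus strand). The coordinates in the count table differ from these for all 10 genes, although the submitters' processing notes name GRCm38, and its build is not established.

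RefSeq promoter windows (GRCm38.p6) were matched by symbol for 7 of the 10 genes (Cd8a, Cd3d, Cd3e, Cd3g, Cd247, Lck and Lat), and the 250 bases before the start are shown for 4 of them: Cd8a, whose protein the beads bind, the divergent neighbours Cd3d and Cd3g, and Cd247, the 1 gene whose restricted libraries all lay above both other groups. Each runs 5′ to 3′ on the gene's own strand, and capitals mark exact matches on either strand to a short word known from a factor family. For the ETS family the word searched was AGGAAG. The RUNX family was searched by TGTGGT. For the GATA family it was AGATAA, and for the element that positions many promoters it was TATAAA. No 2 of these matches overlap in the windows shown.
Cd8a, chr6:71373177-71373426, plus strand: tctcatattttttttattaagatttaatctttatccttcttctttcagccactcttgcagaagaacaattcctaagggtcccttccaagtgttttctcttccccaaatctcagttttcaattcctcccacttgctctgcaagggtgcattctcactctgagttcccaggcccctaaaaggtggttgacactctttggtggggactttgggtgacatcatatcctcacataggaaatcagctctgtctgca
Cd3d, chr9:44981536-44981785, plus strand: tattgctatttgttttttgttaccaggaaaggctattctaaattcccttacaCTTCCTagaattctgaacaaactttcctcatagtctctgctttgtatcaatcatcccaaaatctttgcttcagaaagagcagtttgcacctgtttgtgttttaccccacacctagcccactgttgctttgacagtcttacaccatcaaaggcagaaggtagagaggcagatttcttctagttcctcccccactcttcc
Cd3g, chr9:44980432-44980681, minus strand: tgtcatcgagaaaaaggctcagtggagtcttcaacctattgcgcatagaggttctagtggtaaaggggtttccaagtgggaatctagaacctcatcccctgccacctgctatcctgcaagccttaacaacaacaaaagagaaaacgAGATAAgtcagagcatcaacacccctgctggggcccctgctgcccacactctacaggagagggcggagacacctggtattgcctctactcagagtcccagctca
Cd247, chr1:165788431-165788680, plus strand: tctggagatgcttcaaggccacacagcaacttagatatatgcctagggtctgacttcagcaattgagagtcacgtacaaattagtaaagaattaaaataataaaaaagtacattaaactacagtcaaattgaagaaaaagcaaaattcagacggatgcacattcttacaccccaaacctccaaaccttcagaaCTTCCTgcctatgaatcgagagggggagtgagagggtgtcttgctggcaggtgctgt
The ETS letters begin 198 bases before the start of Cd3d and 57 bases before that of Cd247, and the GATA letters 104 bases before that of Cd3g; the Cd8a window holds none of the 4 words. The 7 matched genes have 8 windows, as Lck has a pair of starts. Of these 8 windows 6 held the ETS letters (5 of the 7 genes), against 29.5% of the 32851 windows of this length in the RefSeq table. The GATA and RUNX letters were in 1 window each (all windows, 9.99% and 14.0%) and TATAAA in none (12.4%).

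Library totals ran from 810662 to 1258575 counts, of which mitochondrial transcripts took 23.5% (aged restricted replicate 2) to 45.7%. Together the 10 genes had 508, 346 and 490 counts in aged restricted mice. Their sum was 425, 111 and 187 counts in aged ad libitum mice and 327, 78 and 147 counts in young ad libitum mice. A single count is between 0.795 and 1.23 CPM (counts scaled to 1e+06 of the library total), and the genes below rest on counts between 0 and 160 in a library. The labelled cell type was CD8 T cells, and Cd8a, Cd8b1, Cd3d and Cd3e had counts in all 9 libraries, but the 10 genes together took 0.00633% to 0.0468% of the counts. A list of 13 monocyte and macrophage genes summed to 8483 ± 742 CPM in aged restricted, 3733 ± 1805 CPM in aged ad libitum and 3650 ± 164 CPM in young ad libitum libraries (SD, n = 3), whereas the 10 genes stood at 389 ± 101 CPM in aged restricted, 278 ± 171 CPM in aged ad libitum and 151 ± 105 CPM in young ad libitum libraries. Apoe alone gave 24385 of the macrophage list's counts over the 9 libraries. These are bulk libraries, so fewer T cells and less of these transcripts per T cell cannot be told apart. The 226 T cell receptor genes of the file, among them 8 constant region genes, were listed at 0 in all 9 libraries and give no level.

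**Figure D1:**
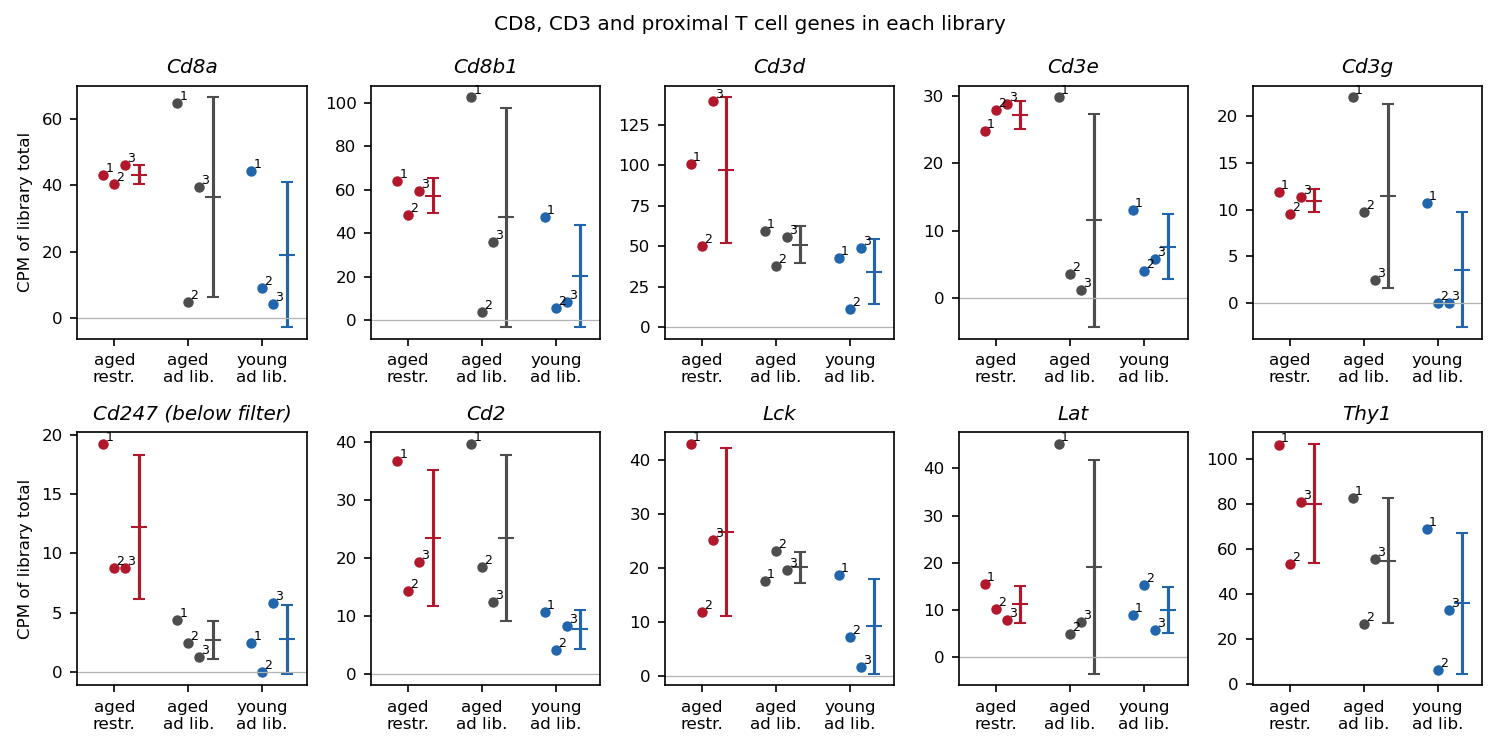
Level of each of the 10 genes in CPM of the library total (vertical axis, one scale per panel) in the 9 libraries, by group; points are libraries with their replicate number, and the bar beside them is the mean with the SD (n = 3). Cd8a, Cd8b1, Cd3e and Cd3g lie close together in aged restricted libraries and far apart in aged ad libitum libraries, where replicate 1 is high.

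Cd8a encodes the chain to which the beads attach, and 47, 51 and 53 counts of it were found in aged restricted libraries. Aged ad libitum libraries had 59, 4 and 32 counts, and young ones 54, 11 and 5. Cd8b1, the partner chain of the CD8 heterodimer of conventional CD8 T cells, had 70, 61 and 68 counts in aged restricted libraries. Its counts were 93, 3 and 29 in aged ad libitum and 58, 7 and 10 in young ad libitum libraries. Both chains were even across the restricted libraries and were low in the same 3 libraries elsewhere, aged ad libitum replicate 2 and young ad libitum replicates 2 and 3. In CPM of the library total, Cd8a averaged 43.3 ± 2.88 in aged restricted, 36.4 ± 30.1 in aged ad libitum and 19.1 ± 21.9 in young ad libitum libraries (SD, n = 3). Cd8b1 averaged 57.3 ± 8.02, 47.3 ± 50.3 and 20.5 ± 23.4 CPM in the same order. For both chains the order of the means was thus aged restricted, aged ad libitum, young ad libitum, and the differences between neighbouring groups were smaller than the SD of the aged ad libitum group.

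The spread between libraries of a group was set beside counting error as a description. For Cd8a the chi-square of the 3 counts against the library totals was 0.229 per degree of freedom in aged restricted libraries, where about 1 is the value for counting error, against 20.8 in aged ad libitum and 30.7 in young ad libitum libraries. Cd8b1 had 1.35, 44.8 and 32.8 in the same order, Cd3e 0.186, 17.8 and 3.70, and Cd3g 0.169, 7.14 and 13.0. Cd3d and Lck did not share the evenness of the restricted group: Cd3d had 25.5, 2.17 and 14.4, and Lck 10.9, 0.340 and 10.1. Over the 10 genes, 5 stayed under 2 per degree of freedom in aged restricted, 2 in aged ad libitum and 1 in young ad libitum libraries. The evenness of Cd8a and Cd8b1 with restriction depended on scaling by library totals: with TMM factors, the scaling used in the tests below, Cd8a was at 44.2 ± 9.63 CPM in aged restricted, 34.9 ± 27.6 CPM in aged ad libitum and 19.3 ± 22.1 CPM in young ad libitum libraries (SD, n = 3), and Cd8b1 at 59.3 ± 18.8, 44.8 ± 46.0 and 20.8 ± 23.6 CPM. The difference in spread between groups was not tested.

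Cd3d, the delta chain, had 110, 63 and 160 counts in aged restricted libraries, 54, 31 and 45 in aged ad libitum libraries and 52, 14 and 59 in young ad libitum libraries. Cd3e, the epsilon chain that pairs with both delta and gamma, had 27, 35 and 33 counts in aged restricted libraries. Its counts were 27, 3 and 1 in aged ad libitum and 16, 5 and 7 in young ad libitum libraries. Every aged restricted library was above every young ad libitum library for Cd3d and for Cd3e in CPM of the library total, while aged ad libitum libraries overlapped both other groups. For Cd3d the margin was 50.1 against 48.7 CPM (aged restricted replicate 2 and young replicate 3), and it does not hold with TMM factors. Cd3d averaged 96.8 ± 44.9 CPM in aged restricted, 50.9 ± 11.5 CPM in aged ad libitum and 34.2 ± 20.0 CPM in young ad libitum libraries, and Cd3e 27.1 ± 2.13, 11.5 ± 15.8 and 7.65 ± 4.81 CPM (SD, n = 3). Cd3g, the gamma chain, had 13, 12 and 13 counts in aged restricted libraries. Its counts were 20, 8 and 2 in aged ad libitum and 13, 0 and 0 in young ad libitum libraries. A count of 0 there allows up to 2.43 CPM in young replicate 2 and 2.47 CPM in young replicate 3, at 3 counts of the total. Cd247, whose product zeta carries most of the signalling motifs of the complex, had 21, 11 and 10 counts in aged restricted, 4, 2 and 1 in aged ad libitum and 3, 0 and 7 in young ad libitum libraries. It was the 1 gene of the 10 with all restricted libraries above all aged ad libitum ones, and it was also the 1 gene that was too low for the filter on counts. Its exact two-sided permutation test on CPM gave p = 0.1 for restricted against aged ad libitum and p = 0.1 for restricted against young mice, the smallest value that 3 libraries against 3 allow. Without the filter its log2 fold change was 2.24 ± 1.31 for restricted against aged ad libitum mice (edgeR adjusted p = 0.613) and 2.14 ± 1.27 for restricted against young mice (edgeR adjusted p = 0.605).

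Cd2, which mouse B cells also express, had 40, 18 and 22 counts in aged restricted libraries. Its counts were 36, 15 and 10 in aged ad libitum and 13, 5 and 10 in young ad libitum libraries. All 3 libraries of each aged group were above all 3 young libraries in CPM, and the B and plasma cell list stood at 4.79 ± 1.40 CPM in aged restricted, 9.23 ± 5.50 CPM in aged ad libitum and 2.43 ± 4.21 CPM in young libraries (SD, n = 3), with Ms4a1 at 0 in all 9; its part in Cd2 was not tested. Lck had 47, 15 and 29 counts in aged restricted, 16, 19 and 16 in aged ad libitum and 23, 9 and 2 in young ad libitum libraries. Lck was even in aged ad libitum mice, where its 3 libraries lay between 17.6 and 23.2 CPM although the CD8 chains differed widely there. Lat, which mast cells and platelets also use, had 17, 13 and 9 counts in aged restricted libraries. Its counts were 41, 4 and 6 in aged ad libitum and 11, 19 and 7 in young ad libitum libraries. The highest value of Lat, 45.1 CPM in aged ad libitum replicate 1, stood beside 20.9 CPM for the mast cell and platelet list in that library. That list had 3.67 to 25.6 CPM in the aged libraries and 0 to 19.8 CPM in the young ones, 8 of its 9 genes were detected, and its part in Lat was not tested. Thy1 had 116, 67 and 93 counts in aged restricted libraries. Its counts were 75, 22 and 45 in aged ad libitum and 84, 8 and 40 in young ad libitum libraries. The fibroblast list was highest in aged restricted replicate 2, at 2296 CPM against 566 and 596 CPM in the other restricted libraries. In that library Thy1 was lowest of its group, at 53.2 CPM. The list ran from 835 to 1163 CPM in aged ad libitum and from 964 to 1293 CPM in young ad libitum libraries, and its part in Thy1 was not tested.

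The libraries were ordered alike by many of the 10 genes. Aged ad libitum replicate 1 was the highest of all 9 libraries for 6 genes (Cd8a, Cd8b1, Cd3e, Cd3g, Cd2 and Lat), and aged restricted replicate 1 for 3 (Cd247, Lck and Thy1). Young ad libitum replicate 2 was the lowest, alone or tied, for 5 genes, young ad libitum replicate 3 for 3 and aged ad libitum replicate 2 for 2. After centring each profile on its mean over the 9 libraries on the log2 CPM scale, Thy1 lay nearest to the profile of the 10 genes summed (root mean square difference 0.32), followed by Cd3d (0.48) and Cd2 (0.49). Of the 9 genes that passed the filter, Lat lay farthest (0.97), beyond the 0.93 of a gene with no variation at all. Each gene is itself part of the sum it was compared with. Cd3d and Thy1 had the most counts over the 9 libraries (588 and 550), so part of their nearness is built in. Counts below 10 in several libraries add counting error to these distances for Cd3g, Cd3e and Lat.

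Within a library, the share of Cd8a and Cd8b1 in the counts of both CD8 chains and the 3 CD3 chains does not depend on scaling. It was 43.8%, 50.5% and 37.0% in aged restricted libraries. With ad libitum feeding it was 60.1%, 14.3% and 56.0% in aged mice and 58.0%, 48.6% and 18.5% in young mice. Aged ad libitum replicate 2 (7 of 49 counts, exact 95% binomial interval 5.94% to 27.2%) and young ad libitum replicate 3 (15 of 81 counts, 10.8% to 28.7%) thus stood below all other libraries, whose lowest interval began at 31.8%. Intervals of this kind cover counting error only, since reads copied by PCR are not independent molecules. The group means were 43.8% ± 6.72 in aged restricted, 43.4% ± 25.3 in aged ad libitum and 41.7% ± 20.6 in young ad libitum libraries (SD, n = 3), closer to each other than the libraries within a group. Cd4, which marks helper T cells that also carry CD3, had 0 counts in aged ad libitum replicate 2 and 4 in young ad libitum replicate 3, within the 0 to 8 of all libraries. Ncr1 and Klrb1c, receptors of natural killer cells, were at 0 in both, but had only 5 and 10 counts over all 9 libraries. Klra4, from the same list of natural killer cell genes, had 36 and 44 counts in these libraries, within the 11 to 98 of all libraries. The part of other cells in these shares was not tested.

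**Figure D2:**
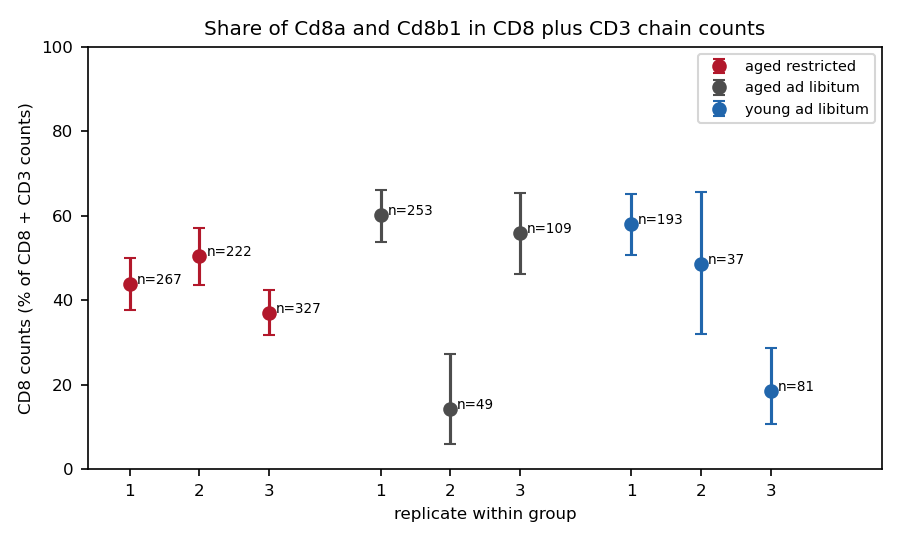
Counts of Cd8a and Cd8b1 as a percentage of the counts of Cd8a, Cd8b1, Cd3d, Cd3e and Cd3g (vertical axis) in each replicate (horizontal axis), with the exact 95% binomial interval and the number of counts n. Aged ad libitum replicate 2 and young ad libitum replicate 3 stand at 14.3% and 18.5%, below the other 7 libraries.

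Cd8a without Cd8b1 marks type 1 dendritic cells of the mouse, which CD8a beads can bind. Cd8a made up 40.2% to 45.5% of the counts of the 2 chains in aged restricted libraries, 38.8% to 57.1% in aged ad libitum libraries and 33.3% to 61.1% in young ad libitum libraries. The extremes rest on 15 and 18 counts, with exact 95% intervals of 11.8% to 61.6% and 35.7% to 82.7%, so no shift towards Cd8a alone was detectable at this depth. Xcr1, a chemokine receptor of these dendritic cells, had 0, 1 and 0 counts in aged restricted, 0, 0 and 2 in aged ad libitum and 4, 0 and 13 in young ad libitum libraries, and Clec9a, another of their receptors, had 2 counts, both in young replicate 1. The whole list of 8 genes, some shared with other cells, stood at 155 ± 17.1 CPM in aged restricted, 105 ± 53.7 CPM in aged ad libitum and 146 ± 16.5 CPM in young ad libitum libraries (SD, n = 3), and its part in the Cd8a counts was not tested.

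Restricted against ad libitum feeding in aged mice asked what diet changed at that age. None of the 9 tested genes passed (edgeR quasi-likelihood test, Benjamini-Hochberg adjusted p under 0.05 over 9009 genes), where 0.944% of all tested genes did. An unadjusted p under 0.05 was found for 1 of the 9, beside 11.7% of all, and DESeq2 called none of the 8 genes to which it gave an adjusted p. Cd3d had the smallest p of the 9, with a log2 fold change of 0.99 ± 0.46 (SE; 95% interval 0.04 to 1.95; edgeR adjusted p = 0.406). Cd3e was at 1.27 ± 0.76 (edgeR adjusted p = 0.555), and at 3.36 without aged ad libitum replicate 1 (edgeR adjusted p = 0.0712). Thy1 was at 0.64 ± 0.62 (edgeR adjusted p = 0.776). Cd8a and Cd8b1 were at 0.31 (95% interval -1.26 to 1.89) and 0.37 (-1.95 to 2.69), intervals that reach more than 1 log2 unit to either side of 0. Lat was at -0.66 and Cd3g at -0.01. The fitted difference was above 0 for 7 of the 9, with a median of 0.37, while 50% of all tested genes were above 0 and their median was 0.00041. With 1 library left out, the median ran from 0.17 without aged restricted replicate 1 (6 of 10 above 0, Cd247 included) to 0.99 without aged ad libitum replicate 1 (10 of 10, Cd247 included). None of the 9 tested genes had restricted libraries wholly above the aged ad libitum ones, where 8.31% of all tested genes did. Cd247, which was left out by the filter, did. The signs of Cd8a and Cd8b1 turned when aged ad libitum replicate 2 was left out (-0.17 and -0.14), and that of Cd2, 0.10, turned without TMM scaling (-0.01).

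The contrast of aged with young mice compared ages under the same ad libitum feeding. None of the 9 tested genes passed (edgeR adjusted p under 0.05), beside 0.289% of all tested genes; 1 had an unadjusted p under 0.05, as did 10.4% of all, and DESeq2 called none. That gene was Cd2, whose aged libraries all lay above the young ones, as 8.29% of tested genes did, with a log2 fold change of 1.55 ± 0.66 (SE; 95% interval 0.20 to 2.89; edgeR adjusted p = 0.388). Cd8a was at 0.87 ± 0.76 (95% interval -0.76 to 2.49; edgeR adjusted p = 0.770), with 0.20 without aged ad libitum replicate 1 and 2.37 without young replicate 1. Lck was at 1.11 ± 0.69 (edgeR adjusted p = 0.623). The other 6 lay between 0.52 (Cd3d and Cd3e) and 1.62 (Cd3g), with intervals that include 0. For Cd3g the young group holds no count once young replicate 1 is left out, and no fold is given there. The fitted difference was above 0 for 9 of the 9, with a median of 0.87, while 49.9% of all tested genes were above 0 and their median was -0.0014. The genes share the same 6 libraries. Without aged ad libitum replicate 1, where Cd247 passed the filter too, 6 of 10 were above 0 at a median of 0.19, with Cd8b1, Cd3e and Lat at -0.08, -1.58 and -0.69.

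Aged restricted against young ad libitum mice differ in both age and diet. None of the 9 genes passed (edgeR adjusted p under 0.05), beside 1.94% of all tested genes, while 4 had an unadjusted p under 0.05, beside 11.6% of all; DESeq2 called none. Cd3d had a log2 fold change of 1.51 ± 0.46 (SE; 95% interval 0.55 to 2.47; edgeR adjusted p = 0.113). Cd3e was at 1.79 ± 0.77 (edgeR adjusted p = 0.340), Cd2 at 1.65 ± 0.65 (edgeR adjusted p = 0.279) and Lck at 1.60 ± 0.68 (edgeR adjusted p = 0.334). Cd8b1 was at 1.49 (95% interval -0.91 to 3.90) and Cd8a at 1.18 (-0.43 to 2.79). Of the 9 tested genes, 4 had restricted libraries wholly above the young ones in CPM of the library total (Cd8b1, Cd3d, Cd3e and Cd2), where 10.2% of all tested genes did. Cd247, which was left out by the filter, did too. The margin of Cd8b1 was 48.5 CPM (aged restricted replicate 2) against 47.5 CPM (young replicate 1). That of Cd3d was 50.1 CPM (aged restricted replicate 2) against 48.7 CPM (young replicate 3). With TMM factors (1.23 for aged restricted replicate 2, 1.00 and 0.941 for young replicates 1 and 3) the groups overlap for Cd8b1 and Cd3d. The fitted difference was above 0 for 9 of the 9, with a median of 1.51, while 51.1% of all tested genes were above 0 and their median was 0.02. The calls depended on settings. Cd3d passed when aged restricted replicate 2 was left out (1.89, edgeR adjusted p = 0.00873) and without the filter on low counts (1.52, edgeR adjusted p = 0.00436). With a term for the replicate number in the fit, Cd8b1, Cd3d and Thy1 passed (edgeR adjusted p = 0.0232, 0.0168 and 0.0393), though the labels name no pairing by number. Over all alternatives the edgeR or DESeq2 adjusted p of Cd3d ran from 0.00436 to 0.416. Without young ad libitum replicate 2 the median was 1.04, and without young replicate 1 it was 2.40. This contrast shares the restricted libraries with the diet contrast and the young libraries with the age contrast, so the 3 are not independent.

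**Figure D3:**
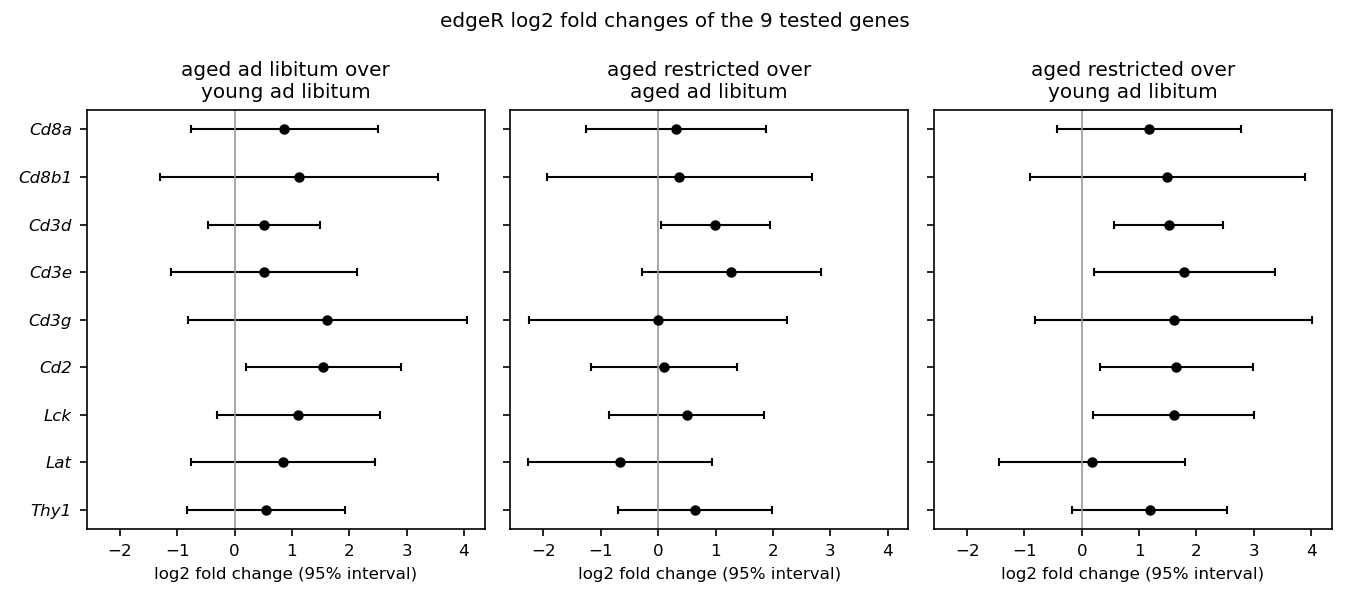
Log2 fold change of the 9 tested genes (horizontal axis) in 3 contrasts, with the 95% interval from the edgeR fit; the vertical line marks no difference. Intervals lie wholly above 0 for Cd2 in the age contrast, Cd3d in the diet contrast, and Cd3d, Cd3e, Cd2 and Lck for restricted against young mice, and none of these genes passed the adjusted threshold.

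Markers of other cells differed between the same groups. Of the 13 macrophage genes 5 passed higher in aged restricted than in aged ad libitum mice (edgeR adjusted p under 0.05), beside 0.944% of all tested genes. In that contrast 3 of 8 keratinocyte genes also passed higher, and 1 of 8 tested endothelial genes lower. Higher in restricted than in young mice were 6 macrophage, 7 of 8 keratinocyte, 4 of 4 tested red blood cell and 2 of 2 tested neutrophil genes, beside 1.94% of all. With age, 2 of 8 keratinocyte, 2 of 4 red blood cell and 1 of 2 neutrophil genes passed higher, beside 0.289% of all. Several of these genes passed the filter on counts only through groups where they were high. S100a8, S100a9, Krt5, Krt14, Krt1, Krtdap, Dmkn, Hba-a1 and Hbb-bt had 0 counts in all 3 young libraries. The shares of tested genes that passed are therefore given as a description only. As sums, neutrophil genes summed to 74.8 ± 21.2 CPM in aged restricted, 27.7 ± 16.5 CPM in aged ad libitum and 4.64 ± 1.70 CPM in young libraries (SD, n = 3), and all 6 of them were detected in some library. Most of these counts came from S100a8 and S100a9 (152 and 108 over all libraries). Retnlg and Mmp8 (20 and 7) had counts in aged restricted libraries only. Cxcr2 did not follow the sum, with 4, 5 and 7 counts in aged restricted, 7, 1 and 2 in aged ad libitum and 5, 3 and 4 in young libraries, and Csf3r had 21 counts over all libraries. Keratinocyte genes of the skin stood at 446 ± 322, 83.3 ± 53.9 and 9.01 ± 2.97 CPM for the groups as listed, and red blood cell genes at 287 ± 113, 71.2 ± 25.1 and 2.46 ± 4.26 CPM. Skeletal muscle genes stood at 91.3 ± 62.0, 22.0 ± 16.3 and 8.70 ± 6.57 CPM, and the list for plasmacytoid dendritic cells at 345 ± 34.0, 368 ± 99.5 and 362 ± 52.9 CPM. Most counts of the latter list came from Bst2 and Tcf4 (2106 and 1222 over all libraries). Siglech, Ccr9 and Spib had 35, 6 and 11, so the sum is no level of these cells. Endothelial genes were highest in aged ad libitum mice, at 165 ± 75.8, 412 ± 189 and 106 ± 24.8 CPM. The list for helper and regulatory T cells stood at 47.5 ± 19.7, 49.3 ± 26.8 and 23.2 ± 13.1 CPM, with Cd40lg at 0 in all libraries and Foxp3 at 2 counts over all 9. Natural killer cell genes summed to 60.5 ± 26.0, 39.8 ± 12.4 and 30.1 ± 10.6 CPM, most of them from Klra4 (368 counts over all libraries), while Klra1 and Klra8 were at 0. The part of these cells in the levels of the 10 genes was not tested.

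**Figure D4:**
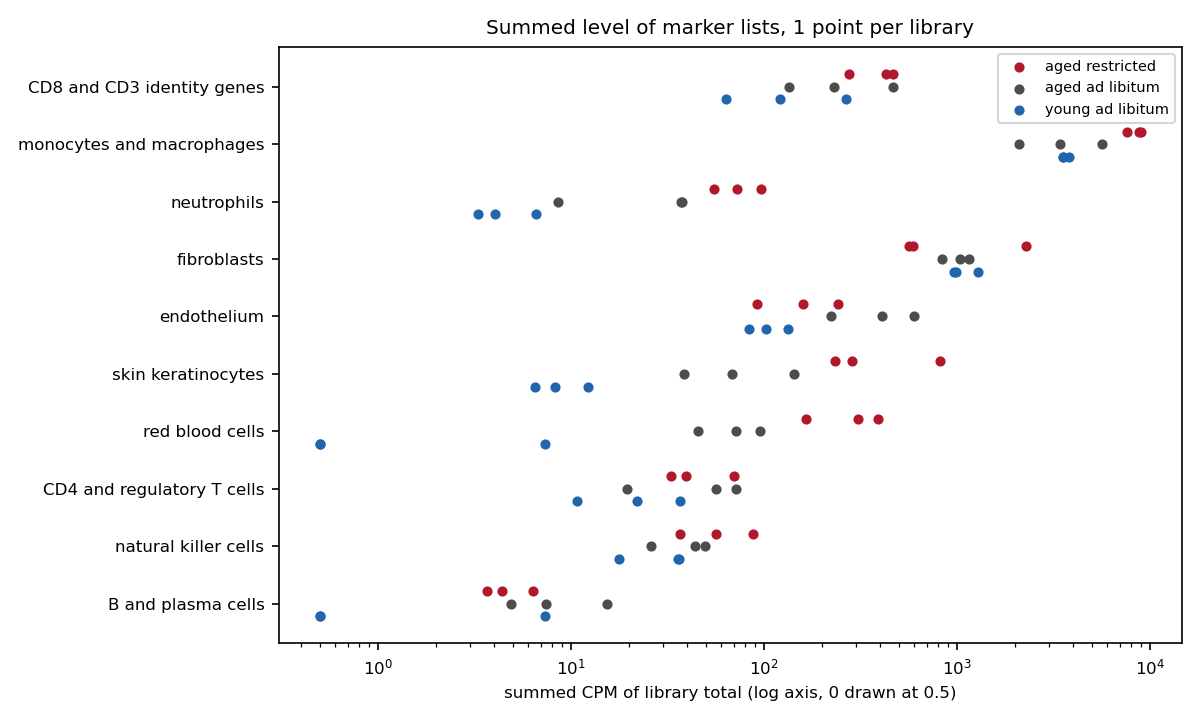
Summed level of each marker list in CPM of the library total (horizontal log axis, 0 drawn at 0.5), 1 point per library, by group from top to bottom as in the legend. The sum of the T cell genes (63.3 to 468 CPM) lies below that of the macrophage genes (2091 to 9014 CPM) in all 9 libraries. Apoe gave 24385 of the macrophage counts over these libraries.

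The next steps of T cell receptor signalling were read from a list of 31 other genes, of which 21 were deep enough to test and Trat1 had no count. Of the 21, 18 had a higher fitted level in restricted than in aged ad libitum mice, at a median of 0.71, beside 50% of all tested genes. This contrast had 1 gene that passed, higher in restricted mice, and 20 that did not, where 0.944% of all tested genes passed. The gene was Sla, which encodes an adaptor that dampens receptor signalling in thymocytes and is also expressed by other leukocytes, with 60, 74 and 48 counts in aged restricted, 4, 6 and 3 in aged ad libitum and 33, 12 and 52 in young ad libitum libraries. Every aged ad libitum library was below all others for Sla. Restricted libraries lay wholly above aged ad libitum ones in 8.31% of all tested genes. Sla rose by 3.31 ± 0.61 (SE) on the log2 scale with restriction (edgeR adjusted p = 0.00428, and 1.56e-05 to 0.0307 over all alternatives). In none of the 10 T cell identity genes were all aged ad libitum libraries below all others. Next by p were Ptpn6, the phosphatase SHP-1, at 1.21 (edgeR adjusted p = 0.202) and Ptpn22, a phosphatase that acts on Lck and Zap70, at 1.39 (edgeR adjusted p = 0.419). Zap70 itself, the kinase that binds CD3 and zeta, had 11, 7 and 16 counts in aged restricted, 5, 2 and 3 in aged ad libitum and 15, 1 and 16 in young ad libitum libraries, a log2 fold change of 1.38 between restricted and aged ad libitum mice (edgeR adjusted p = 0.706); it is named for its role, after its values were seen.

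Against young mice, none of the 21 genes passed with age or with age and restriction combined (edgeR adjusted p under 0.05; unadjusted p under 0.05 for 3 and 4 of them, beside 10.4% and 11.6% of all tested genes; DESeq2 called none). With age, 10 of 21 had a higher fitted level, at a median of -0.03, beside 49.9% of all tested genes. Sla was at -2.39 (edgeR adjusted p = 0.0842) and Plcg1, the phospholipase that Lat recruits, at 1.24 (edgeR adjusted p = 0.260). For restricted against young mice 20 of 21 had a higher fitted level, at a median of 0.83, beside 51.1% of all tested genes. Lcp2 (SLP-76, the partner adaptor of Lat) was at 1.61 (edgeR adjusted p = 0.241), Ptprc (CD45, which all leukocytes carry) at 0.83 (edgeR adjusted p = 0.327) and Cd28, the co-stimulatory receptor, at 1.73 (edgeR adjusted p = 0.428). Of 9 T cell transcription factors 5 were tested and none passed in any contrast (edgeR adjusted p under 0.05; none had an unadjusted p under 0.05, and DESeq2 called none). Bcl11b, which maintains T cell identity, had 13, 11 and 23 counts in aged restricted, 32, 2 and 9 in aged ad libitum and 8, 0 and 15 in young ad libitum libraries, and no group of libraries lay wholly above another.

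The genes whose 9 libraries ran most like the summed T cell genes were Coro1a, Hs6st1, Rac2, Spn, Nkg7 and Icam1, with root mean square differences from 0.27 to 0.41 on the centred log2 CPM scale among 7619 genes with a mean of at least 10 CPM, whose median was 1.07. Coro1a, an actin regulator of leukocytes and the nearest, had 125, 85 and 93 counts in aged restricted, 108, 27 and 36 in aged ad libitum and 74, 9 and 34 in young ad libitum libraries. Nkg7, a granule protein of cytotoxic lymphocytes, had 135, 79 and 106 counts in aged restricted, 120, 37 and 38 in aged ad libitum and 140, 13 and 38 in young ad libitum libraries. Spn, the sialoglycoprotein CD43 of T cells and other leukocytes, had 51, 36 and 33, 42, 14 and 19, and 28, 3 and 8 counts in the same order. In each of these the low libraries were young replicate 2 first, with aged ad libitum replicate 2 and young replicate 3 also below their group's replicate 1. The likeness rested on young ad libitum replicate 2: without it, 1 of the 6 remained among the 6 nearest genes, against 3 to 5 without any other single library.

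**Figure D5:**
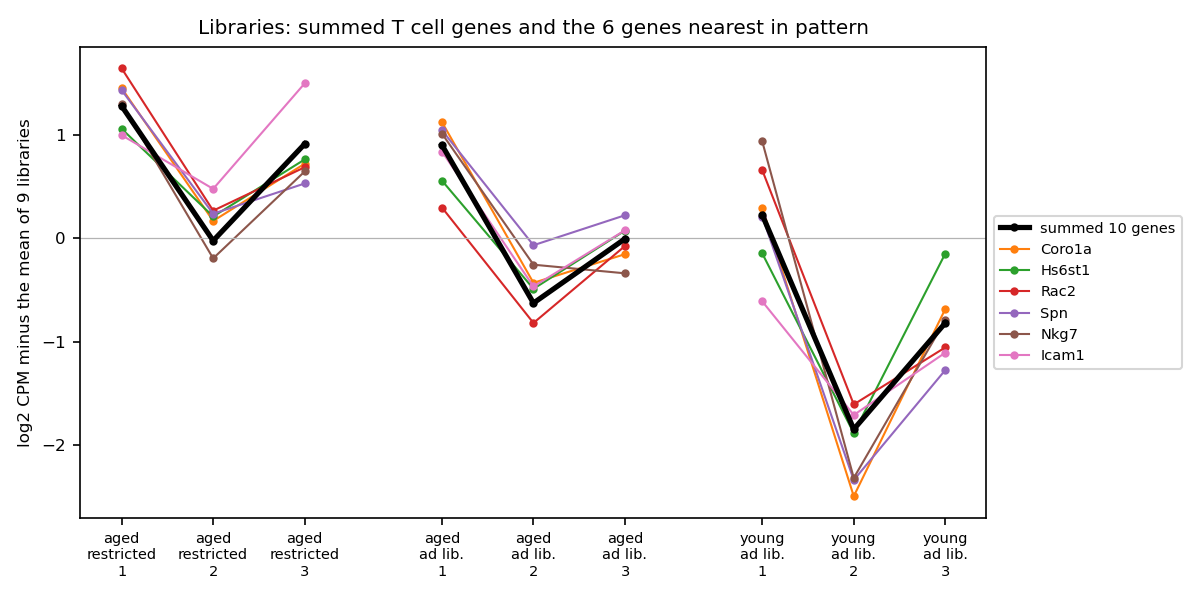
Log2 CPM minus the mean over the 9 libraries (vertical axis) for the 10 genes summed (thick black) and the 6 genes nearest to them in pattern; lines join the libraries of a group for the eye only. All 7 profiles are lowest in young ad libitum replicate 2, where the summed genes stand 1.85 below their mean.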

How the data were processed

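Gene counts of 9 libraries were deposited by the authors as whole numbers. Per the submitters' processing notes, reads were handled with Trim Galore, STAR and featureCounts on GRCm38 (mm10). Versions and settings are not given in the sources used here. The gene coordinates in the count table do not match that build: start and end were the same as in GENCODE M21 for 536 of 25268 matched genes. Counts were tested with edgeR 4.0.16 in R 4.3.3 (TMM, filterByExpr with a minimum count of 10, robust quasi-likelihood fit of all 9 libraries by group, 6 residual degrees of freedom, Benjamini-Hochberg adjustment over 9009 genes, threshold 0.05); the SE is the fold change over the root of F. Cd247 did not pass the filter and was tested by exact permutation (scipy 1.17.1). DESeq2 1.42.0 was an alternative. The edgeR step was tested on simulated data. Levels are CPM of the library total. Likeness used log2 CPM with a prior count of 2. The labels call the libraries biological replicates; p-values measure the spread between them. No pair of libraries of 1 group agreed within sampling noise (chi-square at least 5.65 per degree of freedom). Named genes were the 10 members, called pathway genes, up to 4 per list and contrast with the smallest p, and the 6 nearest in pattern. Members and lists were chosen with earlier results of these data known.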

Additional observations from a re-analysis of the deposited data

How the results depend on the processing

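Genes called for age (26) numbered 91 with DESeq2, 126 without the filter on low counts, 58 with only the 2 groups compared and 2 to 34 with 1 replicate left out (2 without young replicate 2, 3 without aged ad libitum replicate 3, 9 without young replicate 3). For restriction in aged mice (85) they numbered 159 with DESeq2, 50 with library totals, 224 without the filter, 43 with only the 2 groups and 35 to 157 with 1 replicate left out. For restricted against young mice (175) they numbered 286 without the filter and 98 to 242 with 1 replicate left out. With library totals in place of TMM, 63.2% of age calls were higher, against 50% with TMM, and 69.2% against 57.1% for restricted against young mice; DESeq2 gave 62.6% for age. Of the T cell identity genes, none passed for age or for restriction under any alternative run; for restricted against young mice 1 passed without the filter and 0 to 1 with 1 replicate left out, Cd3d each time. Correlations between same-numbered replicates were small (-0.03 to 0.08 over 9 pairs), although 7 of 9 libraries correlated best with their own number. Between replicates of different number they ran from -0.08 to 0.05. The labels name no pairing, so the numbers are not read as pairs. Whether libraries of the same number share a batch was not tested. With the replicate block, 49 genes passed for age, 133 for restriction and 3 of the T cell genes for restricted against young mice (Cd8b1, Cd3d and Thy1; edgeR adjusted p = 0.0232, 0.0168 and 0.0393). Against totals without mitochondrial transcripts the summed level was 634 CPM in aged restricted, 426 CPM in aged ad libitum and 233 CPM in young mice, in place of 389, 278 and 151 CPM; with 1 replicate left out the restricted level was 351 to 446, against 183 to 349 in aged ad libitum and 92.3 to 195 in young mice. With 1 replicate left out, Cd3e ran from 0.77 to 3.36 for restriction and Cd8a from 0.20 to 2.37 for age. Signs that turned belonged to fold changes that did not pass. For restriction, Cd2 was at -0.012 with library totals, and Cd3g at 0.011 without mitochondrial genes, 0.0096 without the filter and 0.45 with the block. With 1 replicate left out, the ranges for restriction were -0.56 to 0.64 for Cd2, -0.20 to 0.92 for Lck, -0.47 to 0.78 for Cd3g, -1.13 to 0.87 for Lat, -0.17 to 0.97 for Cd8a and -0.14 to 1.56 for Cd8b1. For age they were -0.075 to 2.63 for Cd8b1, -1.58 to 1.11 for Cd3e and -0.69 to 1.26 for Lat, and for restricted against young mice -0.30 to 0.59 for Lat. The cause of these changes was not tested. Counts under 10 in many libraries limit Cd3g, Cd247, Cd3e and Lat.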
